A study of Mus musculus with 12 samples.

Results

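The immediate early and stress-induced genes described here are 36 mouse genes taken by their symbols from the deposited count file. They comprise factors of the AP-1, EGR and NR4A families with SRF, the phosphatases and RNA-decay proteins that switch off signalling, and the feedback inhibitors of NF-kB. All 36 were among the 55376 genes of the file, and all 36 were among the 11994 genes with enough counts to be tested, so no member was lost to the filter on low counts. The strongest pattern in them did not follow the study's groups. It followed the replicate number: 31 of the 36 were called lower in the libraries numbered 3 than in those numbered 2, beside 25.4% of all tested genes. The fusion and the shRNAs left nearly all of the 36 uncalled in edgeR's fit over all 12 libraries.

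Immediate early genes are transcribed within minutes of a stimulus, without new protein synthesis, because the factors that drive them (SRF with its ternary complex partners, CREB, NF-kB) already sit in the cell and are switched on by kinases. Their mRNAs are unstable, and several of their products act back on the signal: DUSP phosphatases remove phosphate from MAP kinases, ZFP36 proteins destroy AU-rich mRNAs, and NFKBIA and TNFAIP3 restrain NF-kB. In blood cells in culture they answer cytokines such as SCF and IL-3, receptor cross-linking, stress and handling of the cells.

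The cells came from mouse bone marrow sorted as c-Kit+/Sca-1+/Lin- progenitors and were cultured with 3 cytokines that all 4 groups shared: 100 ng/ml of SCF, 20 ng/ml of IL-6 and 20 ng/ml of IL-3. The 4 groups held 3 libraries each: the empty retroviral vector MSCV with a control shRNA (sh#ctrl), NUP98-NSD1 with the same control shRNA, NUP98-NSD1 with shNizp1#1, and NUP98-NSD1 with shNizp1#2. NUP98-NSD1 is a leukaemia fusion of a nucleoporin with a histone methyltransferase, and Nizp1 is a zinc finger protein whose knockdown, from a pLKO.1-puro construct, was made after geneticin selection. The series' design text states 3 independent experiments, while strain, age and number of animals are not stated. Below, the groups are called empty vector, fusion, shNizp1#1 and shNizp1#2, and values listed for 4 libraries are always in that order.

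Totals ran from 3586538 to 6842589 counts per library. Levels are given as CPM, counts scaled by each library's total and its TMM factor, in which 3 counts equal 0.417 to 0.837 CPM. Zkscan17, the gene of Nizp1, stood at 49.4 to 68.2 CPM in the 6 control-shRNA libraries and at 17.6 to 35 CPM in the 6 libraries with an shRNA against it, with no overlap. Libraries that share a replicate number deviated together from their group means, with r between 0.223 and 0.877 over the 18 pairs, and for all 12 the best correlation was with a library of the same number. The labels do not say what libraries of 1 number share, and that a number marks 1 of the 3 experiments is an inference. Of the genes named in the labelled sort, Kit stood at 1930 to 3105 CPM and Ly6a (Sca-1) at 23.8 to 277 CPM. Flt3, a progenitor gene outside that label, stood at 0 to 3.91 CPM, while Cpa3, the mast cell carboxypeptidase, stood at 19340 to 30640 CPM in every group.

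Together the 36 genes took 0.226% to 1.23% of the counts of a library. Their summed level was 7345 to 12310 CPM in the 4 libraries numbered 2, 3643 to 6285 CPM in those numbered 1 and 2147 to 2634 CPM in those numbered 3, so the ranges of the 3 numbers did not overlap. The mean was highest at number 2 for 24 genes, at number 1 for 11 and at number 3 for 1. It was lowest at number 3 for 32 genes, at number 2 for 3 and at number 1 for 1. Of each gene's variance in log2(CPM + 1), the number accounted for a median of 88.8% and the group for a median of 5.01%, against 48.7% and 20.6% over all tested genes. For 17 of the 36 (47.2%) the number's share lay above 90%, against 3.32% of all tested genes.

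**Figure D1:**
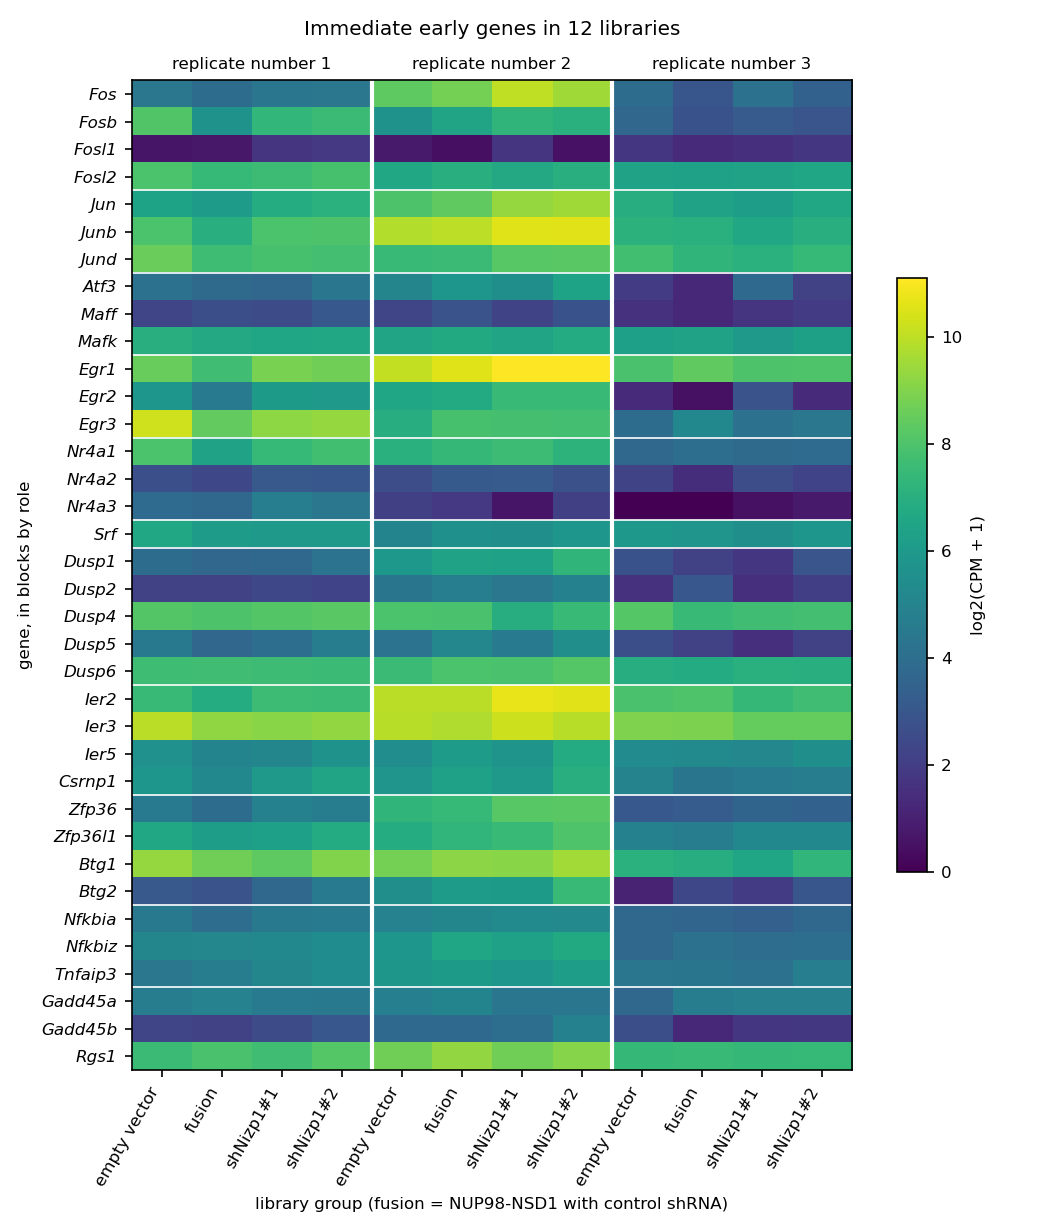
Level of each of the 36 genes (rows, in blocks by role) in the 12 libraries (columns, ordered by replicate number and then by group), coloured by log2(CPM + 1) on a scale that starts at 0. The columns numbered 2 are brightest for Fos, Junb, Egr1 and Ier2, and the columns numbered 3 are darkest for most rows. Within number 1, the fusion column has the lowest level of the 4 in 24 rows (23.5% of all tested genes).

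The differences between numbers were tested with edgeR's quasi-likelihood test in a model of group plus number over all 12 libraries, with p-values adjusted over all 11994 genes. Whether the 4 libraries that share a number come from separate experiments is not stated, so these p-values measure only the spread between libraries. At number 3 against number 2, 31 members were called lower and 0 higher, where 25.4% of all tested genes were called lower and 24.2% higher. At number 2 against number 1, 19 members were higher and 4 lower (Fosl2, Nr4a3, Srf and Egr3), beside 13.4% and 12.6% of all tested genes. At number 3 against number 1, 22 members were lower and 0 higher, beside 15.9% and 10.3%. The median log2 change of the members was -2.39, 0.70 and -0.78 in these comparisons, and that of all tested genes was 0.02, -0.04 and -0.01. Since the comparisons share libraries, the third follows in part from the first 2 and is no separate support. The 5 members not called between numbers 3 and 2 were Fosl1, Jund, Srf, Dusp4 and Gadd45a.

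The numbers were also compared library by library, without a model. In 17 members, all 4 libraries numbered 2 lay above the other 8, beside 9.20% of tested genes, and in 0 members did they lie below (4.91%). In 18 members, all 4 libraries numbered 3 lay below the other 8, beside 9.20%, and in 0 members did they lie above (6.68%). All 4 libraries numbered 1 were above the other 8 in 4 members (Fosl2, Egr3, Nr4a3 and Srf), beside 2.28%, and below them in 0, beside 1.11%. Egr2, Dusp1, Zfp36, Zfp36l1, Nfkbia, Nfkbiz and Rgs1 met both of the first counts, so their 3 numbers form 3 separate tiers.

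**Figure D2:**
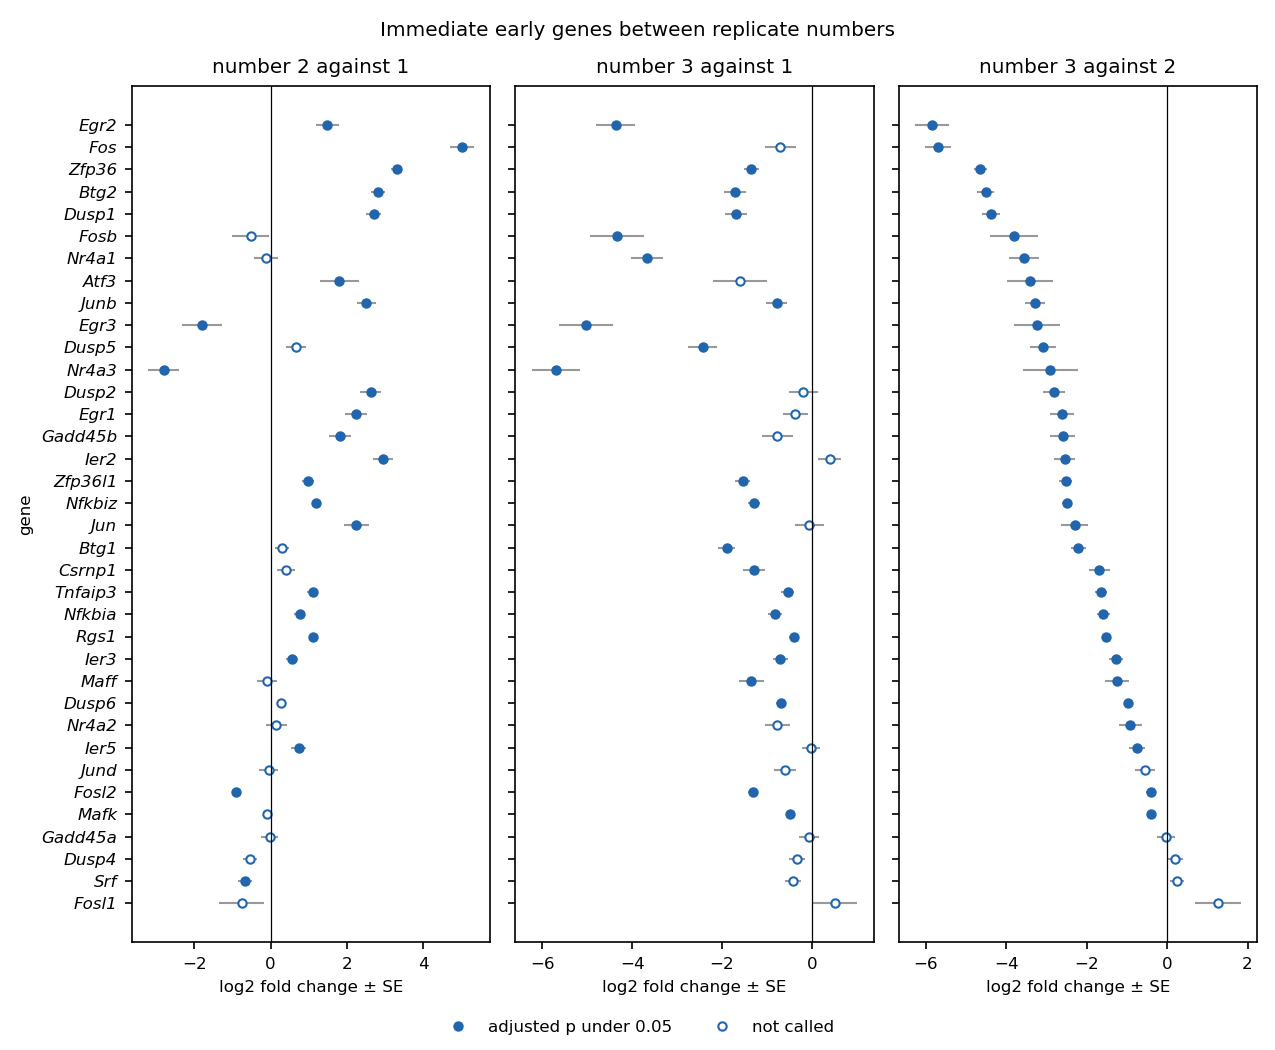
Log2 fold change with its SE (horizontal axis) of each of the 36 genes (vertical axis) between replicate numbers 2 and 1, 3 and 1, and 3 and 2, from the model of group plus number. Filled points passed an adjusted p of 0.05. In the panel of number 3 against 2 the points run from Egr2 at -5.85 to Fosl1 at 1.27, the latter not called.

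The upstream sequence is shown for 5 members that carry the factor sites best known for immediate early control. A link between these sites and the order of the numbers was not tested. RefSeq's promoter table (GRCm38.p6, the same build as mm10) held 29 of the 36. It held no window for Fosl1, Egr1, Egr3, Ier2, Dusp4, Nfkbiz and Rgs1, so these were not searched. In the 250 bases before each start site, both strands were searched for the CArG box that SRF binds, for the cAMP response element (CRE) of CREB and ATF factors as the full site TGACGTCA or the short site TGACGT, and for the EGR site GCGNGGGCG. Capitals mark CArG boxes and CRE sites, where a short site on the reverse strand reads ACGTCA. Fos lies at chr12:85473640-85473889 (plus strand), Egr2 at chr10:67537619-67537868 (plus), Srf at chr17:46556176-46556412 (minus), Dusp1 at chr17:26508520-26508722 (minus) and Btg2 at chr1:134079156-134079405 (minus), and each is printed in the direction of its gene. Srf and Dusp1 stop where an annotated exon begins. The RefSeq start of Dusp1 lies within the longer gene span of the count file.
Fos: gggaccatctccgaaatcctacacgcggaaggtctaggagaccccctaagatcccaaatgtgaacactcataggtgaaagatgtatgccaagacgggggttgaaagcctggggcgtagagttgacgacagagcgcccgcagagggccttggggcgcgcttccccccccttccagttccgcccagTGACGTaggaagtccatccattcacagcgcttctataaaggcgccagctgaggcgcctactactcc
Egr2: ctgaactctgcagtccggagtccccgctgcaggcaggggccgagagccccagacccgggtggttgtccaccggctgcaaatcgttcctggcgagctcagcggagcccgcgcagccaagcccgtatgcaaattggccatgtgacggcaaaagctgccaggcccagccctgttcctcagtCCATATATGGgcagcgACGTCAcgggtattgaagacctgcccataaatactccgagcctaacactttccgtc
Srf: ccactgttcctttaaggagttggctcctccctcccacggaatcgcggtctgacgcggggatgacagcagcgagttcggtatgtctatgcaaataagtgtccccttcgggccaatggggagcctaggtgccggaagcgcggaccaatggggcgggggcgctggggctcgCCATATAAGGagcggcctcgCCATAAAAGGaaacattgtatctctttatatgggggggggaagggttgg
Dusp1: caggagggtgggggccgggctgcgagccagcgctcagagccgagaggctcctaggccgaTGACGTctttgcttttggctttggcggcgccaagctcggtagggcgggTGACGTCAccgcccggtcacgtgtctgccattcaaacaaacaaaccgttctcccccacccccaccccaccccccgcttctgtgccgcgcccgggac
Btg2: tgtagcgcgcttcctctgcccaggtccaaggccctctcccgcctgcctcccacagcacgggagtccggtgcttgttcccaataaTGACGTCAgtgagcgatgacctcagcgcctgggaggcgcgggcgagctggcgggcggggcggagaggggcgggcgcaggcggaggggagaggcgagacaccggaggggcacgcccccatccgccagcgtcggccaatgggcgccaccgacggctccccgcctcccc

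Fos shows a short CRE site 66 to 61 bases before its start, Egr2 a CArG box at 72 to 63 and a short CRE site at 56 to 51, and Srf a pair of CArG boxes at 82 to 73 and 62 to 53. Dusp1 and Btg2 each hold a full CRE. A CArG box was found in 4 of the 29 windows (13.8%: Dusp5, Egr2, Srf and Zfp36), against 1.35% of 20741 genes in the table. A short CRE site was found in 9 (31.0%: Atf3, Btg1, Btg2, Dusp1, Dusp5, Egr2, Fos, Nr4a3 and Tnfaip3), against 7.27%, and the full site in 2 of those (6.90%), against 1.91%. EGR sites were found in 10 (34.5%), against 5.72%. The NF-kB site, searched as the letter pattern of the kappa-B consensus, was in 6 (20.7%: Fos, Fosb, Fosl2, Ier3, Nfkbia and Tnfaip3), against 3.99%. The AP-1 site TGANTCA was in 2 (6.90%), against 6.48%, the ETS site CCGGAAGT in 0, against 3.59%, and TATAAA in 7 (24.1%), against 12.2%. These matches are letters in a fixed window, and sites further upstream were not searched. The windows of Zfp36 and Fosl2 lie wholly in annotated exons (250 of 250 bases), and those of Nr4a3 and Tnfaip3 hold 152 and 110 exon bases. The RefSeq starts of Dusp1, Atf3, Nr4a1, Jund and Zfp36 lie 53656, 34706, 12577, 1210 and 1025 bases from the gene start of the count file. The members were chosen as known early genes, for which such sites have been described, so the shares describe the set and were not tested.

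**Figure D3:**
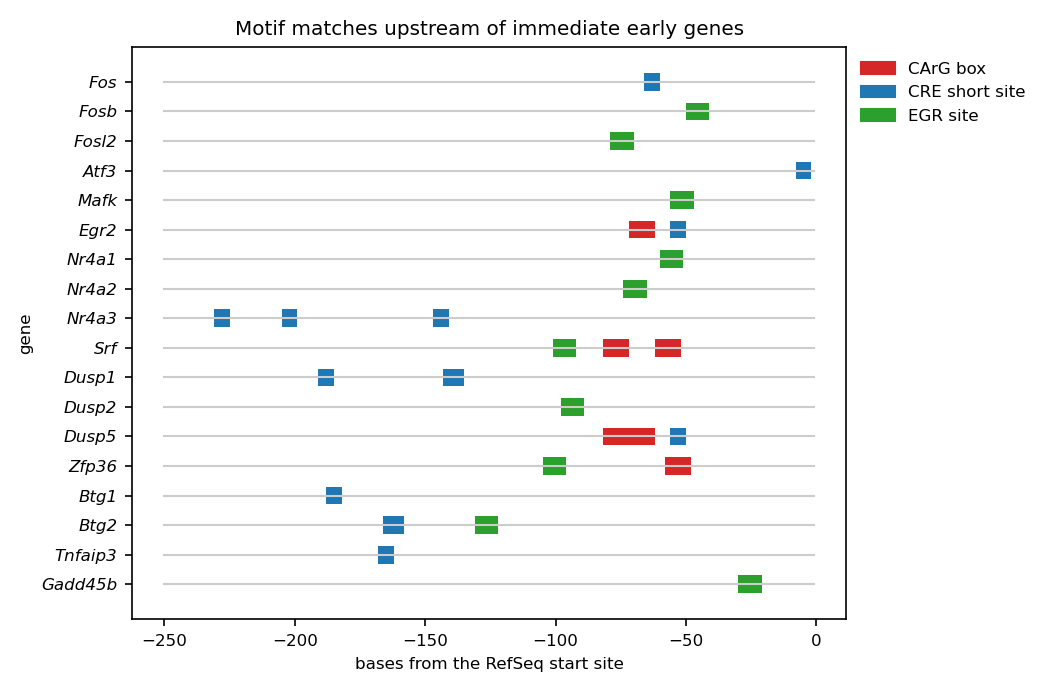
Position of CArG boxes, short CRE sites and EGR sites (coloured bars) in the 250 bases before the RefSeq start site of each member with at least 1 of them (rows), with the horizontal axis in bases from the start. The CArG boxes of Egr2, Srf, Dusp5 and Zfp36 all lie within the last 82 bases.

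Among the AP-1 factors, which pair FOS with JUN proteins on DNA, Fos (chromosome 12, 85473890 to 85477273) varied most. It stood at 19.9, 14.2, 19.3 and 19.9 CPM in the libraries numbered 1, at 327, 435, 1037 and 741 CPM in those numbered 2 and at 14.3, 6.87, 16.4 and 9.83 CPM in those numbered 3. The highest library was 151 times the lowest, and each library numbered 2 exceeded every other library. The log2 change was 5.01 (SE 0.31, adjusted p = 7.4e-05) for number 2 against 1 and -5.70 (SE 0.32, adjusted p = 9.3e-06) for number 3 against 2, whereas number 3 against 1 was not called (-0.70, adjusted p = 0.18). Its short CRE site is printed above. Fos mRNA is known to peak early and briefly after a stimulus.

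Junb and Jun, partners of Fos, were likewise highest at number 2. Junb, an AP-1 subunit common in myeloid cells (chromosome 8, 84976910 to 84978718), stood at 249, 128, 247 and 255 CPM at number 1, at 907, 1023, 1483 and 1530 CPM at number 2, and at 140, 130.5, 100.5 and 126 CPM at number 3. Number 2 exceeded number 1 by 2.5 in log2 (SE 0.24, adjusted p = 4.8e-04), and number 3 against 2 gave -3.29 (SE 0.25, adjusted p = 3.4e-05). Jun stood at 69.2 to 136 CPM, 258 to 736 CPM and 71.2 to 120.5 CPM at numbers 1, 2 and 3. Jund, the JUN protein that is present in unstimulated cells, was not called between any numbers and stood at 136 to 371 CPM over all 12 libraries. Thus 2 of the 3 JUN genes were called between numbers 2 and 1.

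The other FOS genes did not share Fos's profile. Fosb was highest in 3 of the 4 libraries numbered 1: it stood at 272, 49.7, 162 and 189 CPM there, at 51, 87.4, 154 and 132 CPM at number 2, and at 11.5, 5.89, 8.19 and 6.6 CPM at number 3. The number 3 libraries lay below all others, by a log2 change of -4.34 against number 1 (SE 0.60, adjusted p = 0.0032) and of -3.81 against number 2 (SE 0.60, adjusted p = 0.0025). Fosl2, which is a longer-lived AP-1 subunit, stood at 170 to 245 CPM at number 1, 99.5 to 122 CPM at number 2 and 80.1 to 91.7 CPM at number 3, 3 tiers in another order. Fosl1 had only 96 counts over the 12 libraries. It also shares exon bases with Ccdc85b on the opposite strand, a gene at a mean of 13.6 CPM, and since no source used here gives the strand setting of the counting, its counts are uncertain.

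ATF3, which dimerises with JUN proteins after stress, was at 11.7 to 19.2 CPM at number 1, 32.6 to 85.2 CPM at number 2 and 1.37 to 12.8 CPM at number 3. The 12.8 CPM of the shNizp1#1 library stood apart from the other 3 of that number, which were at 1.37 to 3.38 CPM. The small MAF genes were steadier. Mafk stood at 91.8 to 124 CPM, 87.6 to 112 CPM and 62.2 to 84.0 CPM at numbers 1, 2 and 3, so that its number 3 libraries lay below the rest by small steps (log2 change -0.48, SE 0.10, adjusted p = 0.0025 against number 1). Maff was at 1.37 to 7.34 CPM.

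The 3 EGR zinc finger factors split. Egr1, which binds the EGR site itself, followed Fos and Junb: 370, 206, 466 and 409 CPM at number 1, 1093, 1507, 2146 and 2191 CPM at number 2, and 240, 339, 254 and 262 CPM at number 3. Number 2 exceeded number 1 by 2.24 in log2 (SE 0.29, adjusted p = 0.0019), and numbers 3 and 1 were not called apart (-0.37, adjusted p = 0.38). Egr2 (chromosome 10, 67537869 to 67542188) formed 3 tiers. It was at 56.5, 22.8, 64.7 and 61.2 CPM at number 1, at 92.3, 110.5, 185 and 177 CPM at number 2, and at 1.52, 0.393, 6.11 and 1.61 CPM at number 3, where it rested on 2 to 44 counts a library. Its log2 change for number 3 against 2 was -5.85 (SE 0.42, adjusted p = 3.1e-05).

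Egr3 turned the order of the first 2 numbers round. It stood at 1254, 347, 595 and 640 CPM at number 1, at 118, 234, 225 and 220 CPM at number 2, and at 14.3, 35.5, 16.4 and 19.9 CPM at number 3. Every number 1 library thus exceeded every number 2 library, the reverse of the order of Egr1. The log2 change was -5.02 (SE 0.60, adjusted p = 0.0019) for number 3 against 1 and -3.23 (SE 0.57, adjusted p = 0.0040) for number 3 against 2. Egr3 is known as a later member of the wave, itself a target of other early factors in lymphocytes.

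The NR4A genes encode orphan nuclear receptors used as reporters of antigen receptor signalling. Nr4a1 (chromosome 15, 101254269 to 101274795) stood at 249, 82.6, 172 and 210 CPM at number 1, at 133, 169, 192 and 144 CPM at number 2 and at 12.2, 15.1, 13.5 and 13.8 CPM at number 3. Numbers 1 and 2 overlapped, and number 3 lay below both, with a log2 change of -3.67 (SE 0.37, adjusted p = 5.8e-04) against number 1 and -3.56 (SE 0.36, adjusted p = 2.6e-04) against number 2. Nr4a3 was at 12.5 to 25.7 CPM at number 1, at 0.558 to 3.25 CPM at number 2 and at 0 to 0.734 CPM at number 3, the last on 0, 0, 3 and 5 counts. It was lower at number 2 than at number 1 by a log2 change of -2.79 (SE 0.41, adjusted p = 7.0e-04). Nr4a2 stood at 1.77 to 8.09 CPM. Srf, the factor of the CArG box and itself a serum-induced gene, was at 61.1 to 96.0 CPM at number 1, above 31.6 to 58.6 CPM in the other 8 libraries.

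**Figure D4:**
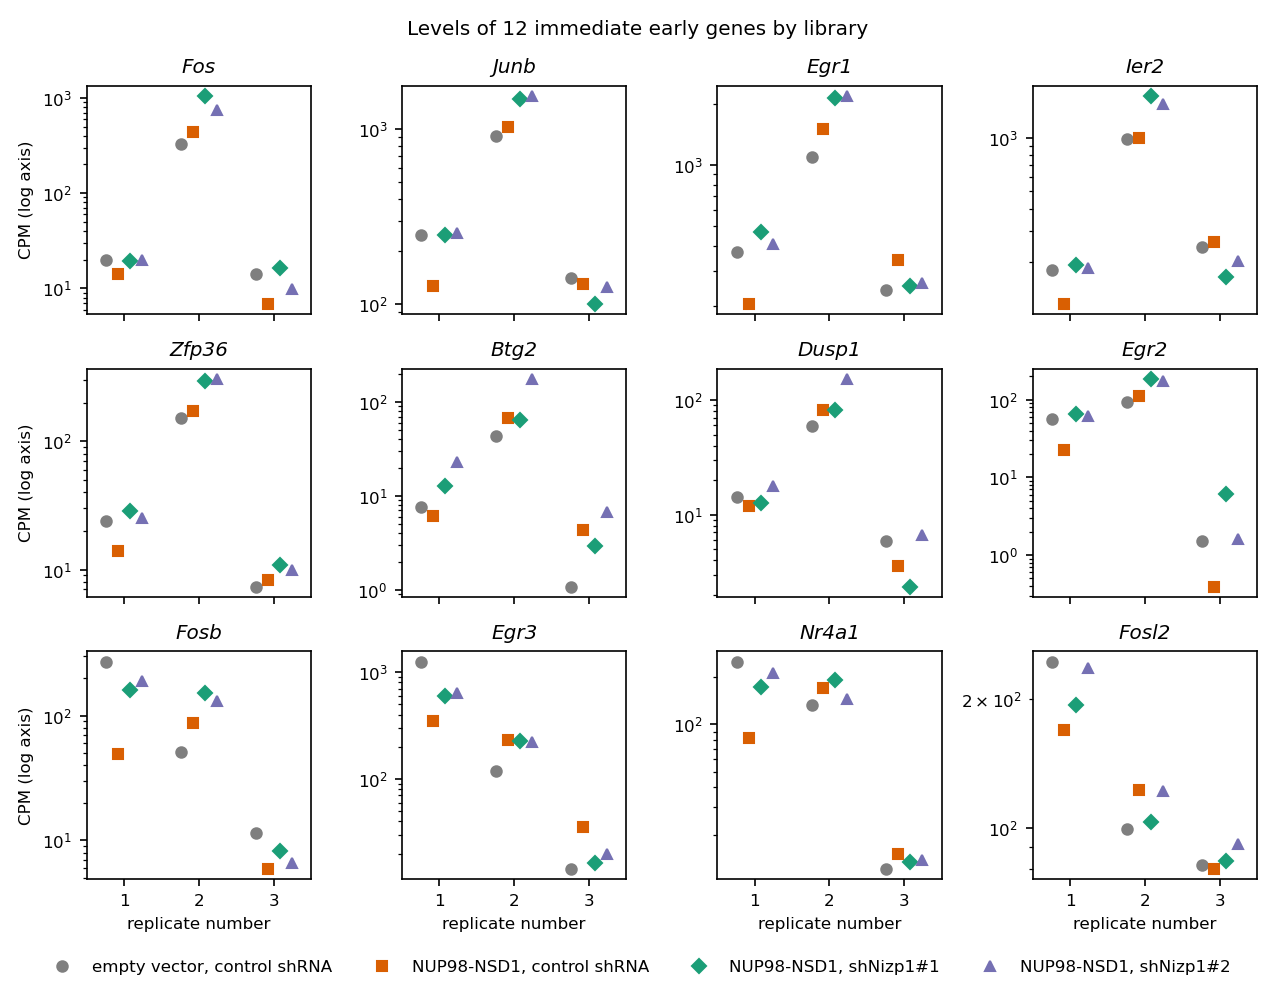
CPM on a log axis of 12 members in each library, by replicate number (horizontal axis) and group (symbol and colour, 1 point per library). Fos, Junb, Egr1, Ier2, Zfp36, Btg2 and Dusp1 are highest at number 2 in every group, while Egr3 and Fosl2 are highest at number 1.

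Of the MAP kinase phosphatases, Dusp1, Dusp2 and Dusp5 moved widely and Dusp4 and Dusp6 little. Dusp1, the nuclear phosphatase of p38 and JNK, stood at 14.3, 11.8, 12.6 and 17.8 CPM at number 1, at 59.9, 82.4, 81.2 and 153 CPM at number 2 and at 5.86, 3.53, 2.36 and 6.6 CPM at number 3. The 3 tiers were separate, with log2 changes of 2.69 (SE 0.19, adjusted p = 3.7e-06) for number 2 against 1 and -4.37 (SE 0.22, adjusted p = 3.3e-08) for number 3 against 2. Dusp2 was at 3.5 to 4.28 CPM, 19.1 to 28.1 CPM and 1.80 to 7.07 CPM at numbers 1, 2 and 3, and Dusp5 at 11.8 to 25.4, 17.9 to 43.1 and 1.80 to 5.43 CPM. Dusp6, a dedicated ERK phosphatase, was at 113 to 131 CPM at number 3 and 188 to 286 CPM elsewhere. Dusp4 had the highest level per length of the 5 (44.1 to 110 RPKM, CPM per kilobase of exon) and was not called between numbers in edgeR. DESeq2 called it lower at number 2 than at number 1 (-0.51, adjusted p = 0.011), as edgeR did without fusion replicate 2 (-0.73, adjusted p = 0.0093).

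Ier3 and Ier2 were the most highly expressed members per length. Ier3, an antiapoptotic early gene, averaged 626 RPKM over the 12 libraries and Ier2 371 RPKM, ahead of Junb at 291, Egr1 at 176, Jund at 133 and Fos at 105 RPKM. Ier2 stood at 182, 117, 192 and 186 CPM at number 1, at 988, 996, 1708 and 1548 CPM at number 2 and at 243, 261, 166 and 204 CPM at number 3. Its numbers 1 and 3 overlapped, as for Fos, Jun and Egr1. Ier3 moved by less, from 352 to 499 CPM at number 3 to 884 to 1203 CPM at number 2, a log2 change of -1.27 (SE 0.17, adjusted p = 2.2e-04). Ier5 and Csrnp1 stood at 31.3 to 113 CPM and 19.0 to 122 CPM.

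Among the genes that limit RNA stability or growth, Zfp36 and Zfp36l1 did not overlap between any of the numbers. Zfp36 encodes tristetraprolin, which binds AU-rich elements and triggers decay of early mRNAs. It was at 23.8, 14.0, 28.5 and 25.4 CPM at number 1, at 151, 173, 293 and 306 CPM at number 2 and at 7.38, 8.24, 10.8 and 9.98 CPM at number 3. Log2 changes were 3.30 (SE 0.14, adjusted p = 8.1e-08) for number 2 against 1 and -4.64 (SE 0.16, adjusted p = 9.6e-10) for number 3 against 2, the smallest adjusted p of any member. Its relative Zfp36l1 stood at 72.3 to 112 CPM, 117 to 259.5 CPM and 24.3 to 35.4 CPM. Btg1, an antiproliferative partner of the deadenylation machinery, overlapped between numbers 1 and 2. It was at 329 to 645 CPM at number 1, 434 to 748 CPM at number 2 and 95.1 to 157 CPM at number 3.

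The NF-kB feedback genes were ordered alike. Nfkbia, the inhibitor that NF-kB induces to retain itself in the cytoplasm, stood at 14.4 to 22.8 CPM at number 1, 29.1 to 37.7 CPM at number 2 and 9.72 to 12.4 CPM at number 3. Its log2 change was 0.77 (SE 0.15, adjusted p = 0.0022) for number 2 against 1 and -1.58 (SE 0.15, adjusted p = 3.0e-06) for number 3 against 2. Nfkbiz was at 32.6 to 41.4, 55.7 to 105 and 12.4 to 16.7 CPM, and Tnfaip3, the ubiquitin-editing enzyme A20, at 20.3 to 40.6, 55.3 to 71.3 and 16.5 to 25.8 CPM. All 3 were called in all 3 comparisons of numbers.

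The last group held stress genes of growth arrest and a signalling regulator. Gadd45b stood at 3.5 to 7.18 CPM, 12.7 to 28.1 CPM and 1.37 to 5.43 CPM at numbers 1, 2 and 3. Gadd45a, its DNA damage-induced relative, did not share this: it was at 12.6 to 31.5 CPM over all libraries, and the number accounted for 2.34% of its variance, the lowest of the 36. Rgs1, a regulator of G protein signalling in leukocytes, was at 189 to 288, 414 to 631 and 168 to 183 CPM, with log2 changes of 1.11 (SE 0.10, adjusted p = 8.9e-06) for number 2 against 1 and -1.52 (SE 0.10, adjusted p = 9.0e-08) for number 3 against 2.

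Several lists of mature cell markers were highest at number 2 and lowest at number 3, as most members were, while the mast cell and the erythroid and megakaryocyte lists were not highest at number 2. Over the 10 neutrophil markers, summed CPM was 202 to 454 at number 1, 846 to 1609 at number 2 and 2.82 to 10.4 at number 3, and 10 of 10 were lower at number 3 than at number 2. The 10 monocyte and macrophage markers summed to 1024 to 1824, 2614 to 4451 and 105 to 1320 CPM (10 of 10 lower), and the 14 interferon-stimulated genes to 165 to 406, 646 to 2005 and 101 to 133 CPM (14 of 14 lower). The 9 dendritic cell and MHC class II markers summed to 80.8 to 127, 160 to 573 and 31.1 to 72.3 CPM, and the 9 eosinophil markers to 20.5 to 31.2, 31.8 to 204 and 9.34 to 15.3 CPM. T and B cell markers summed to 0.880 to 7.46 CPM, with Cd3g and Ms4a1 among those at 0. Mast cell markers summed to 52590 to 66420, 50050 to 60600 and 40610 to 47230 CPM, with medians of 58680, 54630 and 42640. Erythroid and megakaryocyte markers overlapped between all numbers, at medians of 1898, 1680 and 1612 CPM. Their part in the differences of the early genes was not tested, and in bulk RNA fewer cells of a type and less RNA per cell cannot be told apart. Total counts overlapped between the numbers (4247364 to 6376573, 3586538 to 6454564 and 4468392 to 6842589), as did the summed mitochondrially encoded transcripts (14130 to 16750, 12470 to 19690 and 10290 to 18270 CPM).

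Other pathway genes were taken from lists outside the 36. Of 32 tested genes of a list of further immediate and delayed early genes, 25 were lower and 1 higher at number 3 than at number 2, and 9 were higher and 3 lower at number 2 than at number 1. Among the lower ones were Ppp1r15a (log2 change -2.50, adjusted p = 7.9e-09), a phosphatase subunit of the stress response, Id1 (-4.30, adjusted p = 6.4e-08), Klf6 (-1.17, adjusted p = 8.8e-08) and Rhob (-1.34, adjusted p = 1.8e-07). Myc, the best-known growth factor target, was flat, at 94.3 to 117 CPM in all 12 libraries. Of 23 other NF-kB pathway genes, 17 were lower and 0 higher, including Tnf (-1.96, adjusted p = 4.1e-06).

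Signalling genes upstream of the members were called in both directions. At number 3 against 2, where 24.2% of all tested genes were higher and 25.4% lower, 5 of 22 genes of the MAP kinase cascade were higher and 5 lower, and 4 of 14 ERK feedback genes outside the members (sprouty, SPRED and ETV genes among them) were higher and 4 lower. A list of 10 genes joined SRF partners (ELK and MRTF genes) with CREB and ATF genes and the coactivators Crebbp and Ep300. Of these, 1 was higher and 4 lower. Their summed level was 605 to 717 CPM at number 2, above all libraries of number 1 (507 to 573 CPM) and number 3 (498 to 553 CPM). The genes of the list differed. Ep300 stood at 168 to 184 CPM at number 2 and 105 to 129 CPM elsewhere, and Crebbp at 57.7 to 73.3 and 27.7 to 40.9 CPM. Elk1 stood at 28.4 to 36.6 and 28.8 to 39.4 CPM, and Atf1 at 51.2 to 64.2 and 61.7 to 78.3 CPM. Of 10 further AP-1 and MAF family genes, 4 were higher and 6 lower. Most genes of 2 other stress lists ran differently from the early genes. Of 10 tested heat shock genes, 7 were higher and 1 lower at number 3, led by Hspe1 (0.74, adjusted p = 6.8e-05). Dnajb1 ran with the early genes, at 140 to 236 CPM at number 2 and 52.35 to 92.1 CPM at number 3. Hspa1a and Hspa1b, not tested, stood at 0.279 to 1.86 CPM at number 2 and 0 to 0.589 CPM at number 3. Of 10 genes of the integrated stress response, 6 were higher and 1 lower, with Chac1 at 2.94 (adjusted p = 5.6e-05) and Trib3 at 2.52 (adjusted p = 2.4e-06). Of 12 p53 targets, 5 were higher and 5 lower.

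The study's own comparisons gave little in these genes. With 1 mean per group and no block, 0 of 36 members were called in each of the 4 comparisons, beside 0.00834% of tested genes for the fusion, 0% for shNizp1#1, 0.00834% for shNizp1#2 and 0.00834% between the shRNAs. An unadjusted p under 0.05 was reached by 0 members each time, beside 2.67%, 4%, 2.38% and 5.08% of tested genes. The spread over the numbers was wide within a group: Fos averaged 357.6 ± 588.5 CPM (SD, n = 3) with shNizp1#1 and 152 ± 245 CPM (SD, n = 3) with the fusion and the control shRNA. DESeq2 and limma-voom without the block also called 0 members in each comparison. The fusion libraries with the control shRNA enter 3 of the 4 comparisons, so the values below stand side by side and are not independent.

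With the replicate number as a block, the fusion against the empty vector still called 0 members (0 also with DESeq2 and with limma-voom), beside 0.275% of tested genes, and 4 members had an unadjusted p under 0.05, beside 11.0%. The members' median log2 change was -0.11. Rgs1 (0.37, SE 0.12, adjusted p = 0.28) and Nfkbiz (0.41, SE 0.14, adjusted p = 0.33) had the smallest p, and with Gadd45a they were the 3 members higher with the fusion at every number (15.9% of tested genes). Dusp4 and Ier3 were the 2 lower at every number (16.3%). The direction of the set was not the same at each number, a difference that was not tested: 7 members were higher with the fusion at number 1, 32 at number 2 and 11 at number 3, beside 49.6%, 50.2% and 50.4% of tested genes. The median difference in log2(CPM + 1) was -0.44, 0.40 and -0.10. At number 1 the fusion library was the lowest of the 4 for 24 members (23.5% of tested genes), at number 2 for 2, Fosl1 and Ier3 (17.8%), and at number 3 for 13 (23.9%).

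**Figure D5:**
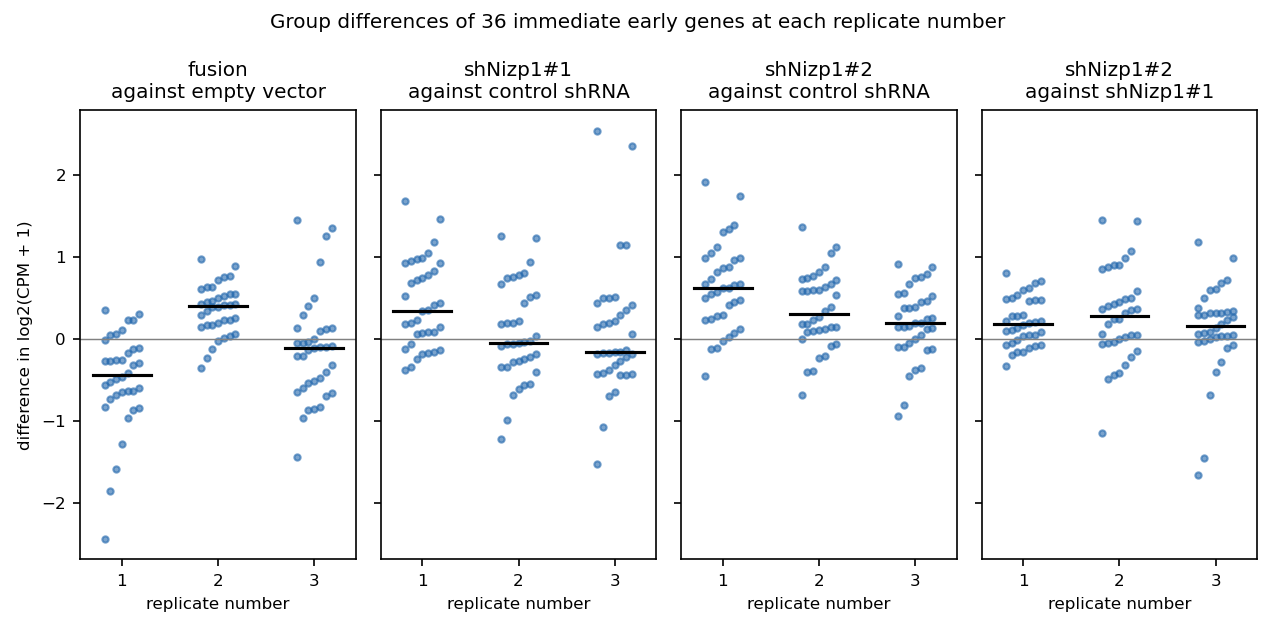
Difference in log2(CPM + 1) of each of the 36 genes (points) between 2 libraries of the same replicate number, for the 4 comparisons, with the median as a black line. For the fusion the medians are -0.44, 0.40 and -0.10 at numbers 1, 2 and 3, and for shNizp1#2 against the control shRNA they are 0.62, 0.30 and 0.20.

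With shNizp1#1 against the control shRNA in fusion cells, 0 members were called with the block, beside 1.63% of tested genes, and 5 had an unadjusted p under 0.05 (12.3%). Zfp36 came closest to the threshold, with a log2 change of 0.75 (SE 0.17, adjusted p = 0.0504). It stood at 28.5 against 14.0 CPM at number 1, 293 against 173 at number 2 and 10.8 against 8.24 at number 3, and it was called with DESeq2 (0.74, adjusted p = 0.017). The blocked log2 differences of Egr2 (1.22, adjusted p = 0.25) and Fos (1.04, adjusted p = 0.26) were larger but not called. At every number 8 members were higher (Fos, Fosb, Fosl1, Egr2, Nr4a2, Zfp36, Zfp36l1 and Gadd45b), beside 17.2% of tested genes, and 4 were lower (Mafk, Srf, Btg1 and Rgs1), beside 18.1%. Of the 8, Fosl1 rested on 8 counts against 2 at number 2, and Egr2 on 44 against 2 at number 3. Members higher numbered 27, 16 and 16 at numbers 1, 2 and 3, beside 49.7%, 47.0% and 51.9%, with medians of 0.35, -0.04 and -0.16.

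Of the pathway lists, 2 of 32 further early genes were called higher with shNizp1#1 in the blocked fit, Klf2 (log2 change 1.49, adjusted p = 0.035) and Rhob (0.68, adjusted p = 0.0078). Of 22 genes of the MAP kinase cascade, 4 were called lower: Mapk14 (p38 alpha, -0.64, adjusted p = 0.0022), Mapk8 (JNK1, -1.09, adjusted p = 0.0078), Map2k4 (-0.57, adjusted p = 0.0079) and Nras (-0.56, adjusted p = 0.0095). All 4 were called higher with shNizp1#2 than with shNizp1#1, and 0 of the 22 were called for shNizp1#2 against the control shRNA. The neutrophil markers moved with shNizp1#1 as well. They summed to 202 against 454 CPM in the fusion control at number 1, 846 against 1557 at number 2 and 10.4 against 3.34 at number 3, and 5 of 10 were called lower. Their part in the differences of the early genes was not tested.

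With shNizp1#2, the block called 1 member, Btg2, beside 0.217% of tested genes, and 9 members had an unadjusted p under 0.05 (11.1%). That count depended on the fit: the blocked test called 13 members, all higher, without the low-count filter and 11, all higher, when only the groups compared were fitted. The shares of all tested genes called in those settings are not given here, so the counts cannot be set against them. Btg2, a p53- and signal-induced antiproliferative gene whose promoter with its full CRE is printed above (chromosome 1, 134075170 to 134079120), stood at 22.8 CPM against 6.13 CPM in the fusion control at number 1, at 176 against 67.8 CPM at number 2 and at 6.75 against 4.32 CPM at number 3. With shNizp1#1 it stood at 12.6, 64.2 and 2.92 CPM, and with the empty vector at 7.59, 43.5 and 1.09 CPM, so at each number the shNizp1#2 library was the highest of the 4. The blocked log2 change was 1.35 (SE 0.22, adjusted p = 0.024) against the control shRNA. Without the block it was 1.38 (adjusted p = 1.0). The blocked call was lost when any 1 of 5 of the 6 libraries compared was left out, with changes of 1.10 without fusion replicate 1, 1.47 without fusion replicate 2, 1.40 without shNizp1#2 replicate 1, 1.23 without shNizp1#2 replicate 2 and 1.39 without shNizp1#2 replicate 3 (adjusted p = 0.11 to 0.34). It remained only without fusion replicate 3 (1.52, adjusted p = 0.023).

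At every number 18 members were higher with shNizp1#2 than with the control shRNA, beside 20.0% of tested genes, and 0 were lower, beside 19.1%. Besides Btg2 they were Fos, Fosb, Fosl1, Jun, Jund, Atf3, Egr2, Nr4a3, Dusp1, Ier5, Csrnp1, Zfp36, Zfp36l1, Btg1, Nfkbia, Tnfaip3 and Gadd45b. Some of these orders rest on few counts. Fosl1 had 3 counts against 2 at number 2, and at number 3 Nr4a3 had 5 against 0 and Egr2 11 against 2. With the block over all 12 libraries and the low-count filter, Btg2 was the 1 member called among the 18. Some marker sums were also higher with shNizp1#2 at every number. The dendritic cell and MHC class II list stood at 127 against 95.04, 573 against 406 and 72.3 against 60.3 CPM (0 of 7 tested markers called with the block). The lineage markers stood at 497 against 449, 727 against 588 and 417 against 372 CPM (0 of 3 called). Of these, Ptprc alone made up 467, 573 and 412 CPM with shNizp1#2. The labelled population markers were also higher at every number. Mast cell markers were lower at every number, at 56610 against 60760, 50050 against 55850 and 41560 against 43720 CPM. Neutrophil, monocyte and macrophage, eosinophil, T and B cell, and erythroid and megakaryocyte sums went both ways. The part of these markers in the members' differences was not tested. The log2 difference was 0.71 for Zfp36 (SE 0.17, adjusted p = 0.13), where shNizp1#1 gave 0.75, and 0.79 for Dusp1 (SE 0.23, adjusted p = 0.23). Members higher with shNizp1#2 numbered 32, 28 and 25 at numbers 1, 2 and 3, beside 52.6%, 47.1% and 51.8% of tested genes, and the members' blocked median was 0.36. Both shRNA libraries lay above both control-shRNA libraries in 15 members at number 1 (18.9% of tested genes), in 12 at number 2 (21.5%) and in 9 at number 3 (18.1%). Egr2 and Zfp36 did so at all 3 numbers. At number 3, however, Egr2 stood at 1.61 CPM with shNizp1#2 and 1.52 CPM with the empty vector, on 11 and 7 counts.

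Between the shRNAs, which target the same gene, Btg2 was again the 1 member called with the block (2.37% of tested genes), higher with shNizp1#2 by 1.22 (SE 0.22, adjusted p = 0.010), and 8 members had an unadjusted p under 0.05 (14.8%). The blocked count was 4 with DESeq2, 7 without the low-count filter and 10 when only the groups compared were fitted, again without the share of all tested genes beside it. Without the block Btg2 differed by 1.39 (adjusted p = 0.9999). It was higher at each number, at 1.81, 2.74 and 2.31 times the shNizp1#1 level. The call was lost without shNizp1#1 replicate 2 (1.01, adjusted p = 0.12) or without shNizp1#2 replicate 1, 2 or 3 (1.27, 1.08 and 1.26, adjusted p = 0.055, 0.14 and 0.0502). Members higher with shNizp1#2 numbered 26, 26 and 27 at numbers 1, 2 and 3, beside 52.4%, 50.3% and 49.4% of tested genes. At all 3 numbers 18 were higher (22.2%) and 2 lower, Egr2 and Nr4a2 (20.6%). The medians were 0.18, 0.29 and 0.16. Of the neutrophil markers, 5 of 10 were called higher with shNizp1#2 than with shNizp1#1 and 0 lower, at sums of 344 against 202, 1597 against 846 and 9.39 against 10.4 CPM at numbers 1, 2 and 3, and their part in the difference of Btg2 was not tested. Of the ERK feedback genes outside the members, 3 of 14 were called higher with shNizp1#2: Dusp10 (1.07, adjusted p = 0.0064), Dusp16 (1.18, adjusted p = 0.0062) and Spred1 (0.52, adjusted p = 0.019).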

How the data were processed

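RNA of 12 libraries (4 groups of 3) was measured as deposited whole-number counts of reads per gene, with each gene's exon length and mm10 position. Per the labels' protocols, stranded poly(A) libraries were made from 1 µg of RNA and read as single 75 nt reads. Per the submitters' processing notes, reads were processed with Trimmomatic 0.32, STAR 2.5.3a and featureCounts, and the strand setting is not given in the sources used here. No row without a gene name and no column of other samples was found.

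Counts were tested with edgeR 4.0.16 (R 4.3.3, robust quasi-likelihood, TMM) after filtering low counts (minimum 10), adjusted by Benjamini-Hochberg over 11994 genes and called under 0.05, with 1 mean per group. Same-numbered libraries correlated in all 18 pairs (median r 0.738, other pairs -0.196), so blocked values stand beside the unblocked ones. Numbers were compared in a model of group plus number. CPM used the tested counts times the TMM factor, and RPKM divided CPM by exon length. Floors of 3 counts cover counting error only. Nothing says which libraries came from separate animals, so p-values cover only how these libraries vary, which may be technical. No replicate pair agreed within sampling noise.

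The members, the lists, the naming rule (members called in a group comparison, the highest per length in each of 11 role lists, and the 10 largest changes between numbers) and the tests were chosen with earlier results of these data known. Alternatives were RLE and upper-quartile scaling, no or a stricter (30) filter, DESeq2 1.42.0, limma-voom (limma 3.58.1), only the groups compared, and omission of libraries. Omission of a whole number was added after seeing the data. Scripts were tested on simulated data.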

Additional observations from a re-analysis of the deposited data

Results flagged for a closer look

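Btg2 differed between the 2 shRNAs against Nizp1: in edgeR's blocked test of shNizp1#2 against shNizp1#1 its level was 1.22 higher in log2 (SE 0.22, adjusted p = 0.010), and it was higher with shNizp1#2 at 3 of 3 numbers. The call was lost on leaving out any 1 of 4 of the 6 libraries compared (adjusted p = 0.0502 to 0.14), and without the block the adjusted p was 0.9999. Zkscan17, the target of both, differed between them by -0.32 (SE 0.13, adjusted p = 0.23) in the same fit.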

How the results depend on the processing

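Counts of members called between replicate numbers stayed within 1.5 times the reported counts of 23, 22 and 31 under every alternative run: 18 to 29 for number 2 against 1, 18 to 31 for number 3 against 1 and 30 to 32 for number 3 against 2. Single calls that were lost on leaving out 1 library were those of Atf3, Egr3, Ier3 and Srf for number 2 against 1 and of Ier3, Junb and Rgs1 for number 3 against 1, at values between -1.96 (Egr3 without shNizp1#1 replicate 2) and 2.04 (Atf3 without shNizp1#1 replicate 2).

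Group comparisons without the block called 0 members in all 17 settings each. With the replicate block, the count moved from 0 to 1 for shNizp1#2 against the control shRNA and for shNizp1#2 against shNizp1#1, also with RLE, upper-quartile scaling, a stricter filter and limma-voom (1 each), and stayed at 0 for the fusion and shNizp1#1. DESeq2 with the block called 1, 1 and 4 for shNizp1#1, shNizp1#2 and between the shRNAs. Without the low-count filter the block called 3 for the fusion, 7 for shNizp1#1, 13 for shNizp1#2 and 7 between the shRNAs, and a fit of only the groups compared called 2, 11 and 10 for the last 3. Shares of all tested genes called in these settings are not given here, and the cause of the differences was not tested. With the block and single libraries left out, counts ran from 0 to 2 for the fusion (Fos and Jund without empty vector replicate 2) and from 0 to 1 for shNizp1#2 and between the shRNAs. Leaving out replicate 2 of every group gave 1 for the fusion (Jund) and 1 between the shRNAs (Btg1), and leaving out replicate 1 gave 1 (Btg2).

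Unblocked changes reversed on leaving out the replicate 2 library of the treated group, since that library was the highest. Ranges over single omissions were -0.41 to 1.08 for Nfkbiz and -0.27 to 0.99 for Rgs1 with the fusion, -0.36 to 2.88 for Egr2, -3.10 to 5.08 for Fos and -1.75 to 3.31 for Zfp36 with shNizp1#1, -0.85 to 3.71 for Btg2, -1.44 to 2.95 for Dusp1 and -1.90 to 3.36 for Zfp36 with shNizp1#2, and -0.86 to 3.19 for Btg2 and -1.41 to 3.04 for Dusp1 between the shRNAs. Members at few counts (Fosl1, Nr4a3 and Egr2 at number 3) have little precision at this depth.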
